A study of Canis lupus familiaris with 8 samples.

Results

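The annexins were examined as 8 genes, ANXA1, ANXA2, ANXA3, ANXA4, ANXA5, ANXA6, ANXA7 and ANXA11, listed by symbol and found as 8 rows among the 37952 genes of the count table. Messenger RNA was counted in 8 wells of MDCK GII, an epithelial line from dog kidney, cultured in serum-containing medium on a collagen-coated elastic silicone membrane. In the 4 stretch wells the membrane and its monolayer were held at 18% strain, equal in both in-plane directions, for 2 hours. The 4 control wells were not strained. The labels name no genetic change in either group and describe the wells as technical replicates of a single cell line, so p-values below measure the spread between these wells and not between cultures of separate origin.

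Annexins are cytosolic proteins that bind acidic phospholipids, chiefly phosphatidylserine, when calcium rises. Each combines a conserved core of annexin repeats, which holds the calcium sites, with a variable amino-terminal tail that sets its partners. When a plasma membrane is torn, calcium enters and annexins gather at the wound edge, where they are known to aggregate vesicles, bend the membrane and help to close the hole. Stretch is one way to wound epithelial cells, and the comparison asks whether annexin transcripts differed after strain. Transcript counts carry no information on the movement of the proteins.

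Total counts lay between 27047358 and 32478887 per well. The epithelial markers CDH1, EPCAM, KRT8, KRT18 and KRT19 were all abundant, with a summed level of 6203 to 6993 TPM (counts per exon length, scaled to the same total in every well) in the control group and from 6498 to 6891 in the stretch group. Of 5 fibroblast markers, 3 had no read in any well and the sum did not exceed 0.0776 TPM, and of 4 leukocyte markers 2 had none (sums from 0.574 to 1.22 TPM). The 4 endothelial markers summed to 0.484 to 0.920 TPM over all wells. In such bulk samples, fewer cells with a transcript and less of it per cell cannot be told apart.

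ANXA2 and ANXA1 were among the most abundant transcripts of the monolayer, and the annexins below them spanned more than 2 orders of magnitude. Per length, the 8 genes together stood at 9750 ± 122 TPM in control wells and 9811 ± 62.4 TPM in stretch wells (mean ± SD, n = 4 each). They took 0.656 ± 0.00852% and 0.658 ± 0.0118% of all counts. ANXA2 made up 49.5 ± 2.53% and ANXA1 39.9 ± 2.48% of the summed annexin TPM in control wells, so the other 6 genes shared the small remainder.

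In control wells ANXA2 had 4824 ± 293 TPM, which placed it 7th of all genes in the table. ANXA1 followed with 3889 ± 207 TPM, the 13th level. The wells of these 2 genes did not overlap, and ANXA2 stood 1.24-fold above ANXA1 per length, although ANXA1 collected more reads in each well (82330 to 98647 against 71027 to 83945 in control wells). ANXA1 stood 13.1-fold above the next of the 8 genes.

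Near that next level 3 genes lay close together. ANXA11 had 298 ± 10.5 TPM and ANXA5 296 ± 23.1 TPM in control wells, and their ranges overlapped, so they could not be ranked. ANXA4 had 268 ± 8.42 TPM. Its highest control well, at 276 TPM, lay just under the lowest of ANXA5, at 279 TPM. ANXA7 stood 2.32-fold below ANXA4, at 116 ± 10.99 TPM, and ANXA3 2.01-fold below ANXA7, at 57.6 ± 2.41 TPM.

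ANXA6 closed the order at 0.968 ± 0.282 TPM, 59.5-fold below ANXA3. It is the largest annexin, with a duplicated core, and is known for narrowing wounds at the edge of the tear. Its 8 wells held between 21 and 59 reads. With so few reads, counting alone gives a coefficient of variation of 16.5%, against 29.0% observed between control wells, whereas for ANXA1 counting gives 0.336% against 5.18% observed. Levels between genes also rest on the exon models: ANXA2 and ANXA5 have the shortest ones (1020 and 1015 bases, against 1469 to 2934 for the other 6), and reads in untranslated ends outside a model were not counted to the gene.

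**Figure D1:**
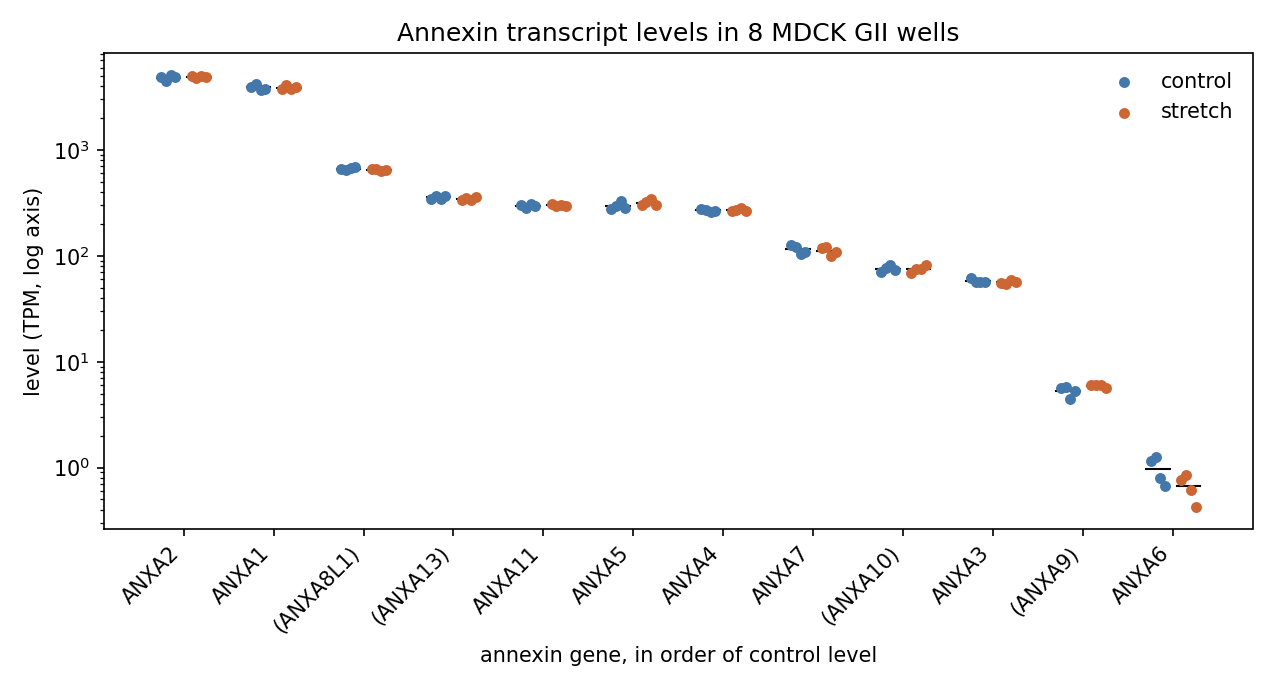
Transcript level (TPM, log axis) of each annexin in every well, in order of the control level; blue points are the 4 control wells, orange points the 4 stretch wells, black bars the group means, and names in parentheses are annexins outside the 8. ANXA2 and ANXA1 lie near 4824 and 3889 TPM in control wells, ANXA6 near 0.968 TPM, and control and stretch points of a gene lie close together beside these gaps.

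The 8 genes lie on 6 chromosomes of the dog assembly UU_Cfam_GSD_1.0. Over the whole table, start and end were the same as in its RefSeq genes for 37246 of 37291 matched symbols. ANXA1 lies on chromosome 1 (85425388 to 85444242), ANXA2 on chromosome 30 (25587160 to 25620802) and ANXA3 on chromosome 32 (37159977 to 37203480), all on the minus strand. ANXA4 lies on chromosome 10 (69733550 to 69767485) and ANXA5 on chromosome 19 (19247832 to 19277209), both on the plus strand. Chromosome 4 holds ANXA7 (24666997 to 24695008, minus), ANXA11 (29954194 to 29994048, plus) and ANXA6 (58949170 to 58998237, plus). The models have 12 to 17 separate exon blocks, except ANXA6 with 27. Exons of ANXA4 overlap those of LOC119873710 on the opposite strand, and since the strand setting of the counting is not stated, the ANXA4 values are uncertain to that extent. The other 7 share no exon position with another gene in the table. How reads that match several places were counted is not stated either, so levels could be affected where an annexin has near-identical copies elsewhere.

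None of the 8 annexins passed the test of stretch against control. Without a block, 0 of 8 passed at an adjusted p of 0.05 in the quasi-likelihood test of edgeR, adjusted by Benjamini-Hochberg over 14571 genes, of which 0% passed. At an unadjusted p under 0.05 there were 0 of 8, against 3.97% of all genes. With the replicate number as a block, which separates differences between same-numbered pairs from the effect of strain, 0 of 8 passed, against 0.7% of all genes, and with a block of only 2 levels (numbers 1 and 2, numbers 3 and 4) again 0 of 8, against 0.398%. DESeq2 without the block also called 0 of 8, against 40 of 14571 genes. Limma-voom called 0 of 8 with the block, against 100 of 14571 genes, and 0 of 8 without it, against 0. DESeq2 with the block called 0 of the 7 to which it gave an adjusted p (none for ANXA6), against 145 of 9768 genes. Of the 8 genes 4 were higher and 4 lower. The median log2 change was -0.0016 with the block, beside -0.0022 over all tested genes, and the median size of the change was 0.020 beside 0.059. Among the 4769 tested genes with at least 50 CPM in control wells, whose values are less noisy, that size was 0.034.

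For ANXA2 and ANXA1 the limits on any change were narrow. ANXA2 pairs with S100A10 at the cell surface, where it anchors plasminogen activation, and also links membrane to actin. It had 2608, 2358, 2738 and 2611 CPM (counts per total count of the well, scaled by TMM factors) in control replicates 1 to 4. In the stretch wells it had 2656, 2563, 2583 and 2602 CPM. The stretch wells fell inside the control range, and 2 of 4 pairs were higher. The log2 change was 0.014 with the block, with a 95% confidence interval from -0.058 to 0.087 (edgeR, adjusted p = 0.964; 0.999 without the block). Without the block the interval was wider, from -0.083 to 0.108.

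ANXA1, a substrate of the EGFR kinase and the ligand of formyl peptide receptors when released, had 3023, 3193, 2828 and 2929 CPM in control replicates 1 to 4. Stretch replicates 1 to 4 had 2872, 3154, 2811 and 3036 CPM. The groups overlapped almost entirely, and 1 of 4 pairs was higher. The log2 change was -0.012 with the block, with an interval from -0.078 to 0.054 (edgeR, adjusted p = 0.966). Without the block the interval was wider, from -0.115 to 0.091.

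ANXA11 has a long tail that binds the calcium sensor ALG-2, the product of PDCD6, and tethers RNA granules to lysosomes. It had 388, 359, 389 and 380 CPM in control wells and 394, 375, 379 and 376 CPM in stretch wells. Every stretch well but replicate 1 lay inside the control range. With the block, it differed by 0.0089 on the log2 scale (interval from -0.063 to 0.081; edgeR, adjusted p = 0.983).

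ANXA4 is abundant in secretory and renal epithelia and is known to curve free membrane edges. It had 292, 288, 270 and 284 CPM in control wells and 279, 288, 294 and 281 CPM in stretch wells. Replicate 3 was the lowest control well and the highest stretch well. The difference with the block was 0.0095 on the log2 scale (interval from -0.070 to 0.089; edgeR, adjusted p = 0.983).

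ANXA3, a member with fewer established roles, had 59.9, 55.0, 54.7 and 55.0 CPM in control wells and 54.3, 53.7, 56.6 and 55.9 CPM in stretch wells. Control replicate 1 stood above the other 7 wells. With the block, the log2 change came to -0.026 (interval from -0.13 to 0.079; edgeR, adjusted p = 0.9499), and 0.0083 when that control well was left out of the fit without the block.

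ANXA7, which was first known for fusing secretory granules and also recruits ALG-2 to wounds, had 137, 129, 111 and 117 CPM in control wells. In stretch wells it had 126, 130, 104 and 115 CPM. The wells fell by number and not by group: replicates 1 and 2 had at least 126 CPM and replicates 3 and 4 at most 117 CPM in both groups. Its log2 change with the block was -0.056 (interval from -0.14 to 0.031; edgeR, adjusted p = 0.801).

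ANXA5 was higher in all same-numbered pairs but did not pass. It binds exposed phosphatidylserine, the property behind its use as a stain for dying cells, and forms ordered lattices on membrane. It had 149, 157, 174 and 150 CPM in control wells. The stretch wells had 160, 174, 179 and 161 CPM. Control replicate 3 was level with stretch replicate 2 and above stretch replicates 1 and 4, so the groups overlapped. The 4 pairs were higher by 0.10, 0.15, 0.039 and 0.10 on the log2 scale, a pattern of 4 higher pairs that 8.45% of all tested genes also had. The log2 change was 0.097 ± 0.060 (SE) without the block and 0.098 ± 0.038 with it. With the block the interval ran from 0.017 to 0.18 and the unadjusted p was 0.0202, but the adjusted p was 0.404 (edgeR). With the block of 2 levels the unadjusted p was 0.0713. The change was 0.12 within numbers 1 and 2 alone and 0.076 within numbers 3 and 4 alone. Leaving out a well at a time, without the block, gave 0.068 to 0.15, the highest without control replicate 3.

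ANXA6 had the largest change by size and the fewest reads. Its raw counts were 49, 59, 36 and 33 in control replicates 1 to 4. In the stretch wells they were 34, 36, 27 and 21. The lower 2 control wells fell among the stretch wells, so the groups overlapped. Normalised, it had 1.49 ± 0.432 CPM in control and 1.02 ± 0.296 CPM in stretch wells (n = 4 each), and 0 of 4 pairs were higher, as for 7.84% of all tested genes. The log2 change was -0.55 ± 0.29 (SE) without the block and -0.55 ± 0.24 with it. With the block the interval ran from -1.06 to -0.037 and the unadjusted p was 0.0370, but the adjusted p was 0.509 (edgeR). With the block of 2 levels the unadjusted p was 0.0345. The change was -0.57 within numbers 1 and 2 alone and -0.51 within numbers 3 and 4 alone. At 21 to 59 reads per well, a difference of that size did not pass over all genes.

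With the replicate block, ANXA5 and ANXA6 were the 2 of 8 annexins with an unadjusted p under 0.05 in edgeR, where 8.89% of all tested genes had one. With the block of 2 levels only ANXA6 had one among the 8, beside 1176 of the 14571 tested genes. In DESeq2 with the replicate block 1 of 8 did, beside 785 of all genes. For no annexin did all stretch wells lie on one side of all control wells, a separation that 2.55% of all tested genes showed. For 5 of the 8 (ANXA1, ANXA2, ANXA3, ANXA4 and ANXA11) the log2 change had opposite signs within numbers 1 and 2 and within numbers 3 and 4.

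**Figure D2:**
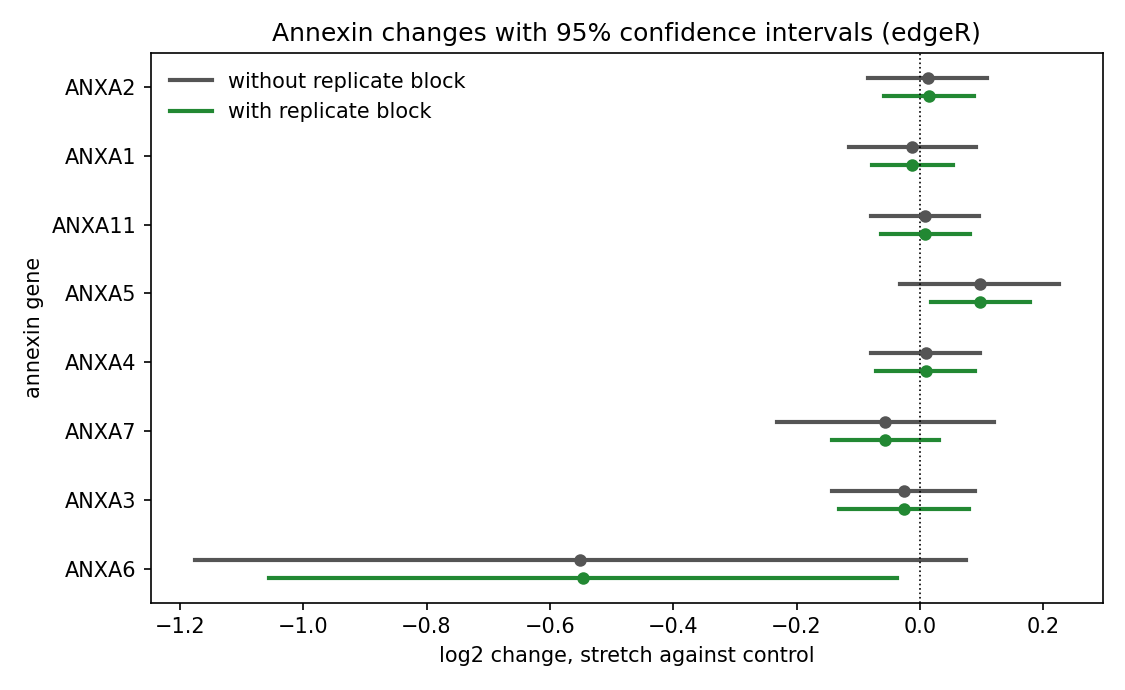
Log2 change of each annexin, stretch against control (horizontal axis), as estimate (point) and 95% confidence interval (bar) from edgeR, without the replicate block (grey) and with it (green). The intervals of ANXA1, ANXA2, ANXA4 and ANXA11 with the block lie between -0.078 and 0.089, that of ANXA5 runs from 0.017 to 0.18, and that of ANXA6 is the widest, from -1.06 to -0.037.

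Each of the 8 annexins differed between replicate numbers more than between groups, as the medians over all tested genes also did. For ANXA7 the number accounted for 90.8% of the variance of log2 CPM over the 8 wells and the group for 4.97%, and for ANXA1 the shares were 87.4% and 0.871%. Over all tested genes the medians were 57.5% for the number and 6.59% for the group. ANXA7 had a higher share by number than 93.0% of the tested genes and ANXA1 than 88.7%. The shares of ANXA4 (11.1%) and ANXA3 (28.7%) were higher than those of 4.52% and 18.6% of the tested genes. In the replicate 2 wells of both groups, ANXA1 was the highest and ANXA2 the lowest of its group. Replicates 1 and 2 exceeded replicates 3 and 4 by 0.23 on the log2 scale for ANXA7 and by 0.67 for ANXA6, more than the size of the strain difference for either gene. The labels do not say what the numbers stand for, the 4 numbers can take up more variance than the 2 groups by their count alone, and these shares were examined after the values were seen and carry no test.

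**Figure D3:**
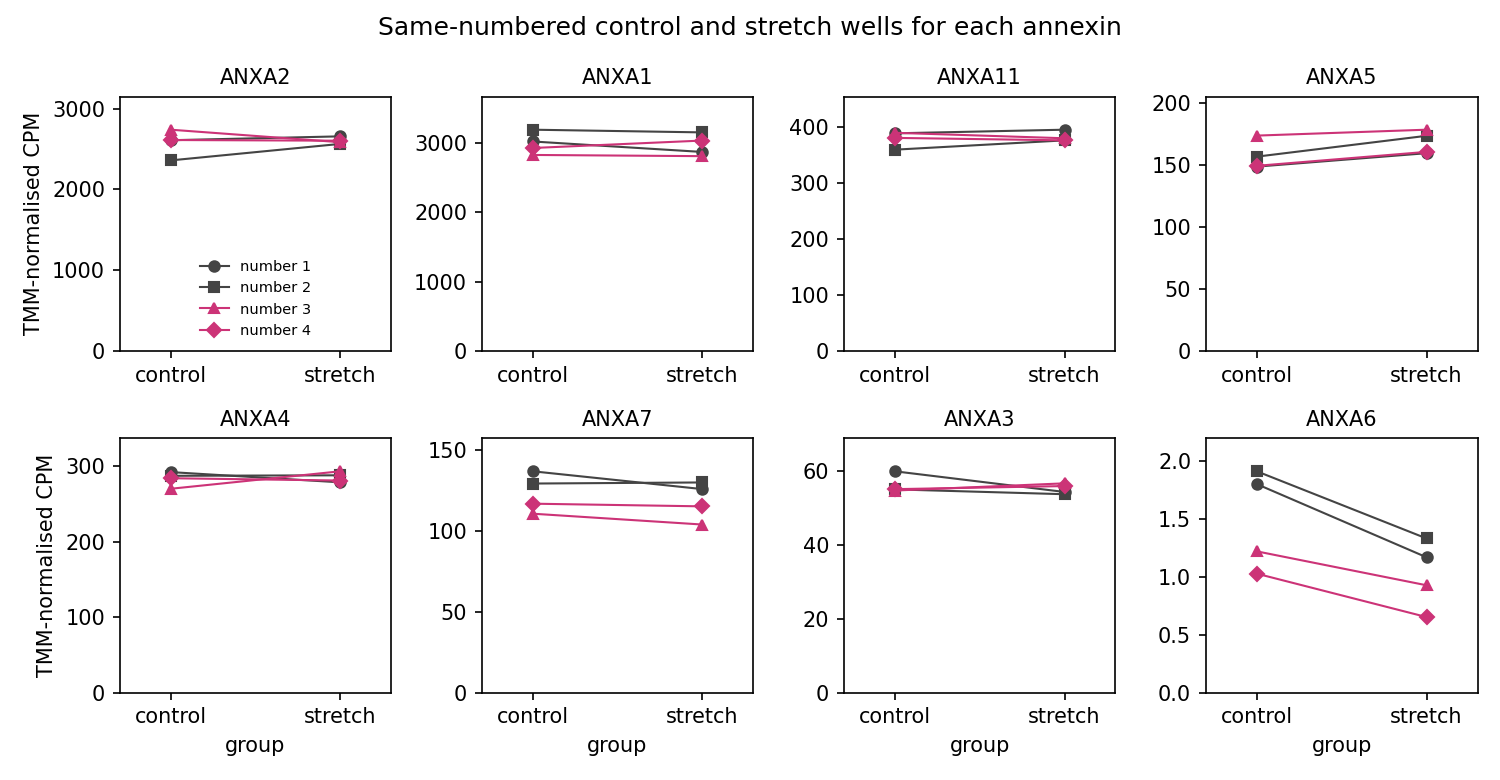
TMM-normalised CPM (vertical axes from 0) of each annexin in control and stretch wells, with same-numbered wells joined; dark lines are numbers 1 and 2, magenta lines numbers 3 and 4. Lines cross for ANXA2, ANXA1, ANXA11, ANXA4 and ANXA3, all 4 slope upward for ANXA5, and all 4 slope downward for ANXA6. For ANXA7 the 2 dark lines cross each other but stay above the magenta ones.

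Other annexin genes were read for comparison. ANXA8L1, added to the listed genes after its row was seen because the table has no row named ANXA8, had 665 ± 20.6 TPM in control wells. ANXA13, an annexin of gut and kidney epithelium known in MDCK cells for delivery of cargo to the apical membrane, had 356 ± 14.6 TPM. Both exceeded all of the 8 genes but ANXA2 and ANXA1, and neither overlapped the control wells of ANXA11. ANXA10 had 75.4 ± 4.92 TPM and ANXA9 5.28 ± 0.556 TPM, above ANXA6 and below ANXA7. None of these 4 passed in either fit (edgeR). ANXA9 had a log2 change of 0.17 with the block, with 4 of 4 pairs higher and an adjusted p of 0.458, and its exons overlap MINDY1 on the opposite strand. ANXA13 had a log2 change of -0.048 with 0 of 4 pairs higher (edgeR, adjusted p = 0.790 with the block).

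The S100 proteins are small calcium binders, several of which clasp annexin tails and join annexin molecules on facing membranes. Of 11 listed S100 genes 10 were tested, and 0 passed in either fit (edgeR; at an unadjusted p under 0.05, 0 without the block and 1 with it), with 5 higher and 5 lower and a median log2 change of -0.0037 with the block. Of the listed S100 genes, 3 stood highest per length in control wells. S100A6, a partner of ANXA11 and ANXA2, had 4839 ± 95.3 TPM. S100A10, a partner of ANXA2, had 1951 ± 43.5 TPM, and S100A11, a partner of ANXA1, had 745 ± 27.3 TPM. These 3 were singled out after their values were seen. All other listed S100 genes had lower control means, among them S100A14 with 306 TPM, S100A4 with 202 TPM and S100P with 125 TPM. High abundance was therefore not a feature of the whole list. Per length, S100A10 in control wells stood below ANXA2 and S100A11 below ANXA1. With the block, the log2 change was 0.017 for S100A10 (interval from -0.053 to 0.088), -0.013 for S100A11 (-0.084 to 0.057) and -0.031 for S100A6 (-0.098 to 0.036). The smallest p without the block belonged to S100P, S100A1 and S100A14. S100P went from 30.6 ± 2.05 to 34.2 ± 3.39 CPM, by 0.16 on the log2 scale, and did not pass (adjusted p = 0.553 from edgeR with the block). S100A1, with 17 to 42 reads per well, had a log2 change of 0.38 and S100A14 of -0.058, with adjusted p of 0.823 and 0.8287 in the same fit.

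Genes that act with annexins in membrane repair were not called either. Of 15 listed genes for calcium sensing, membrane fusion and repair scaffolds 13 were tested and 0 passed in either fit (edgeR; 0 at an unadjusted p under 0.05 in both), with 8 higher and 5 lower and a median log2 change of 0.016 with the block. SMPD1, the lysosomal sphingomyelinase released when lysosomes fuse with a torn membrane, went from 14.5 ± 0.993 to 15.95 ± 0.975 CPM. It was higher in 4 of 4 pairs, by 0.14 on the log2 scale (edgeR, adjusted p = 0.669 with the block). SYT7, the calcium sensor of that fusion, had 54 to 86 reads per well and a log2 change of 0.23 (adjusted p = 0.827), and EHD1, a membrane-remodelling ATPase, had 0.074 (adjusted p = 0.730), both from edgeR with the block. The ferlins DYSF and MYOF, calcium-binding fusion proteins singled out after their values were seen, had log2 changes of -0.0036 and 0.029 with the block. TRIM72, the muscle repair protein MG53, had 2 to 14 reads per well and was not tested, and FER1L6 had 0 reads in every well.

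AHNAK, a giant scaffold protein that binds the ANXA2 and S100A10 complex, had wells that lay close by number, and was singled out for that after its values were seen. It had 1168, 1418, 1727 and 1615 CPM in control replicates 1 to 4. Stretch replicates 1 to 4 had 1169, 1397, 1698 and 1653 CPM. The wells spread widely within each group while same-numbered wells lay close together. Its log2 change was -0.0029 without the block, with an interval from -0.37 to 0.36, and -0.0030 with it, with an interval from -0.068 to 0.062 (edgeR).

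The ESCRT machinery, which pinches off damaged membrane and is recruited by ALG-2 and ALIX (PDCD6IP), had 11 of 12 listed genes tested and 0 called in either fit (edgeR; 0 at an unadjusted p under 0.05 in both), 6 higher and 5 lower. CHMP4C had no read in any well. VPS4A, the ATPase that takes ESCRT filaments apart, had a log2 change of 0.083 with 4 of 4 pairs higher, CHMP4A of 0.11 and CHMP4B of -0.058, with adjusted p of 0.694, 0.799 and 0.850 (edgeR with the block). The 10 listed scramblases, flippases and their helper, which set how much phosphatidylserine faces outward, were all tested, and 0 passed in either fit (edgeR; at an unadjusted p under 0.05, 0 without the block and 1 with it), 4 higher and 6 lower. XKR8, a scramblase of dying cells, went from 4.04 ± 0.452 to 3.35 ± 0.390 CPM was lower in 4 of 4 pairs, and its log2 change with the block was -0.27 (adjusted p = 0.676, edgeR). PLSCR4 had -0.22 and the flippase ATP8B1 0.093, with adjusted p of 0.780 and 0.404 in that fit. Of the formyl peptide receptors, FPR2 was in the table with at most 1 read per well, and FPR1 and FPR3 had no row under those names.

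**Figure D4:**
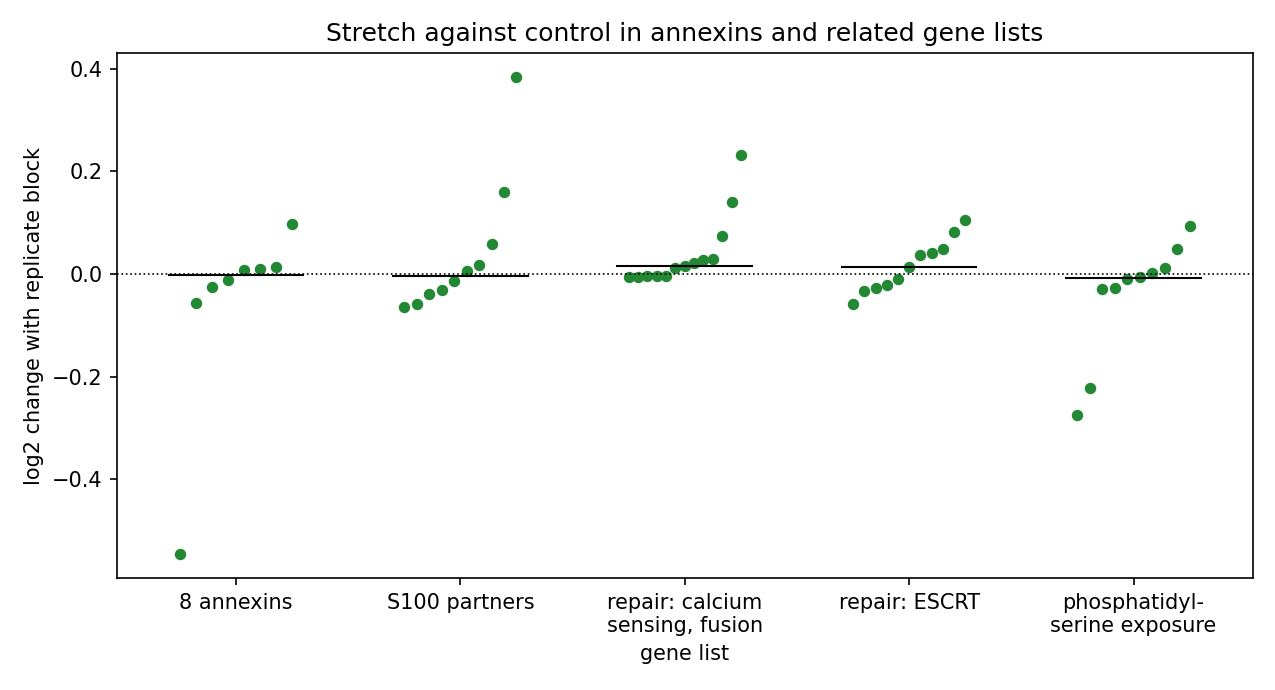
Log2 change with the replicate block (vertical axis) of each tested gene in the 8 annexins and 4 related lists, sorted within each list; black bars are list medians. The medians lie between -0.0079 and 0.016, and the point furthest from 0 is ANXA6 at -0.55.

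The genes whose pattern over the 8 wells was most like that of ANXA5 were CHSY1, STX11 and TLE1, with a Pearson r of log2 CPM of 0.952, 0.939 and 0.938 (Spearman rho 0.952, 0.952 and 0.833). For ANXA6 they were CEP97, MDM1 and ALG6, with r of 0.953, 0.944 and 0.941 (rho 0.929, 0.905 and 0.952). These are the highest of 9904 candidates over only 8 wells, which share 2 groups and 4 numbers, so they describe these wells and carry no p. None of these genes passed with the block (edgeR, adjusted p from 0.0761 for CHSY1 to 0.766 for MDM1).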

How the data were processed

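The authors deposited unnormalised exon read counts for each gene, with 1 column per well and 0 columns of other samples. Per the submitters' processing notes, FastQC 0.11.8, Trim Galore 0.6.5, STAR 2.7.3a, Subread and featureCounts were used; genome build, strand setting and treatment of reads with several matches are not given in the sources used here. Of 37952 symbols, 37291 matched the RefSeq table of UU_Cfam_GSD_1.0. No sequences were used here.

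Counts were tested in R 4.3.3 with edgeR 4.0.16 (quasi-likelihood, robust), TMM factors and filterByExpr (minimum count 10, minimum total 15), which left 14571 genes, after a check on simulated data. All 8 annexins passed this filter. Adjustment was by Benjamini-Hochberg over all tested genes, at 0.05. The replicate numbers come from the sample titles. Wells with equal numbers shared their departures from the group mean (correlation across genes from 0.108 to 0.328 over the 4 numbers), so the fit with the number as a block is given beside the fit without it. Of the 4 control wells, however, only replicate 1 correlated best with the stretch well of its own number, while replicates 2, 3 and 4 did so with stretch replicates 1, 4 and 3. DESeq2 1.42.0, limma-voom (limma 3.58.1), other scalings and filters, a block of 2 levels and omission of wells were the alternatives. Log2 CPM used a prior count of 2. TPM used the deposited exon length. Figures used matplotlib 3.10.9.

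The members and lists were chosen with earlier results of these data known. The text names every annexin, and from each list the genes past the threshold or else the 3 with the smallest p without the block, except where stated.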

Additional observations from a re-analysis of the deposited data

Results flagged for a closer look

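In 48 groups of 4 wells, the distance of the outermost well to its neighbour was divided by the span of the group (Dixon's test). In 3 groups the quotient exceeded the 95% critical value, which chance exceeds in about 5% of groups. For ANXA3 in control wells, replicate 1 had 59.9 CPM against 54.7 to 55.0 in the others (quotient 0.929). For ANXA9 in stretch wells, replicate 4 had 25.8 CPM against 27.1 to 27.4 (quotient 0.841). For CHMP4B in control wells, replicate 4 had 85.9 CPM against 77.8 to 79.1 (quotient 0.833).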

How the results depend on the processing

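No annexin passed under any of the 27 alternatives. ANXA5 stayed higher and ANXA6 lower in all that gave an adjusted p (27 and 26; DESeq2 with the replicate block gave none for ANXA6), with lowest adjusted p of 0.221 and 0.507. The other 6 changed sign, all at small values. With numbers 1 and 2 alone, ANXA4 had -0.033; with numbers 3 and 4 alone, ANXA1 had 0.028, ANXA2 -0.039, ANXA3 0.042 and ANXA11 -0.021. Omitting a well without the block gave -0.040 to 0.023 for ANXA1, -0.025 to 0.043 for ANXA2, -0.038 to 0.0083 for ANXA3, -0.013 to 0.027 for ANXA4, -0.10 to 0.0042 for ANXA7 and -0.014 to 0.023 for ANXA11. Omitting a pair with the block gave -0.033 to 0.0084 for ANXA1, -0.018 to 0.046 for ANXA2, -0.052 to 0.013 for ANXA3, -0.028 to 0.035 for ANXA4 and -0.0065 to 0.023 for ANXA11. Over both, ANXA5 had 0.068 to 0.15 and ANXA6 -0.70 to -0.38.

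The number of all genes called, 0 without the block, was 102 with the replicate block, 58 with the block of 2 levels, 40 in DESeq2, 145 in DESeq2 and 100 in limma-voom with the replicate block, 11 without a filter, 51 with numbers 1 and 2 alone and 25 with numbers 3 and 4 alone. With alternatives added after seeing the data, it was 448 with the block and no filter and 111 with the block and library size only. Omitting a well or pair gave 0 to 186 genes: 12 without control replicate 3, 3 without stretch replicate 1, 1 each without control replicate 2 or stretch replicate 4, and 43, 67, 186 and 74 with the block without pairs 1 to 4. The cause was not tested. The order of control levels kept 8 of 8 places except without control replicate 1 or 4, when ANXA5 and ANXA11 exchanged places (6 of 8 kept). Depth limits ANXA6, with 21 to 59 reads per well, the most of the 8.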
